A study of Homo sapiens with 6 samples.

Results

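DIS3, DIS3L, DIS3L2, XRN1, XRN2 and PNPT1 encode enzymes that digest RNA from an end, and C1D and MPHOSPH6 encode cofactors of the RNA exosome. These 8 genes were chosen by name, as nucleases of the exosome, its cofactors and other RNA exonucleases, out of 60675 genes counted in each library. All 8 were found in the files and all 8 passed the filter on low counts, among 18075 tested genes. The question asked of them was whether the level of their transcripts differed after knockdown of MTR4, the RNA helicase that feeds substrates to the nuclear exosome.

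RNA-seq was done on PLC/PRF/5 cells, a human hepatocellular carcinoma line, with 3 control libraries and 3 MTR4 KD libraries, numbered 1 to 3 in each group. Values of the libraries of a group are given below in the order of these numbers. The study describes the RNA-seq cells as carrying an inducible short hairpin RNA against MTR4 in a lentiviral vector, compared before and after induction with doxycycline (Doxy), while the sample labels say only control and MTR4 KD. No library of Doxy-treated cells with a scramble hairpin was analysed here, so Doxy and the loss of MTR4 cannot be told apart. Nothing in the labels says whether the 3 libraries of a group came from separate cultures, so p-values measure the spread between these libraries.

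The exosome is a barrel-shaped complex that degrades and trims RNA from the 3′ end. Its ring has no catalytic activity in human cells, and RNA is threaded through it to DIS3 in the nucleus or DIS3L in the cytoplasm. C1D and MPHOSPH6 sit on the nuclear form and help to dock EXOSC10 and MTR4. DIS3L2 works without the ring on RNAs that carry a tail of uridines. XRN1 and XRN2 work from the other end, 5′ to 3′, in the cytoplasm and in the nucleus respectively, and PNPT1 is the polynucleotide phosphorylase of mitochondria.

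The libraries held 60686786 to 72708682 reads on genes. Reads with more than 1 alignment made up 34.7% to 37.5% of all entries in 3 libraries (control replicates 1 and 3, MTR4 KD replicate 3) and 14.8% to 18.2% in the other 3 libraries. The same 3 libraries had fewer entries of low alignment quality (1.62% to 1.66% against 5.61% to 5.73%). They also had fewer entries not aligned (1.33% to 1.86% against 3.83% to 5.96%) and fewer ambiguous ones (5.89% to 6.37% against 7.79% to 8.29%). The division by non-unique alignments therefore stands for all of these measures at once. The division at 30% crossed the conditions, so each side held libraries of both, and differences within each side are given below where they matter. MTR4 KD replicate 3 is alone in its group over 30%, and control replicate 2 is alone in its group under 30%. Each difference within a side therefore rests on 1 library for 1 of its groups. By a chi-square of the counts per degree of freedom, control replicate 2 was nearer MTR4 KD replicates 1 and 2 (35.6 and 41.2) than control replicates 1 and 3 (84.25 and 89.9). MTR4 KD replicate 3 was nearer control replicates 1 and 3 (72.1 and 73.7) than MTR4 KD replicates 1 and 2 (88.3 and 93.7). A fit with condition only counts this as spread between replicates. As the control and MTR4 KD libraries divide unequally between the sides, part of a difference between the sides also enters the fold changes of that fit. All 10 hepatocyte markers were above 1 CPM (reads of a gene per 1000000 reads on genes) in every library, with a summed level of 19776 to 21728 CPM in the control libraries and 19342 to 20271 CPM in the MTR4 KD libraries. The sum hides shifts of single markers in both directions. The mean of TTR went from 15.5 CPM in the controls to 28.7 CPM after knockdown, and that of SERPINA1 from 10534 to 9165 CPM. Of 7 measured markers of immune, endothelial and fibroblast cells, COL1A1 alone was above 1 CPM in every library, and their summed level was 5.30 to 8.28 CPM in the control and 3.74 to 8.58 CPM in the MTR4 KD libraries. Of the immune markers, CD68 was at 0 in 5 of the 6 libraries, CD3E in 3 and PTPRC in 1, and PTPRC reached 1.79 CPM.

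MTR4 itself fell. Its level was 72.2, 87.4 and 74.4 CPM, scaled with edgeR's TMM factors as all CPM values below are, in the controls and 44.6, 48.8 and 44.1 CPM after knockdown. The log2 fold change was -0.77 (95% interval -0.98 to -0.56), a fall by 41.2%, with an adjusted p of 0.00641 in edgeR's quasi-likelihood test.

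None of the 8 genes passed an adjusted p of 0.05 in the same fit, in which 650 of the 18075 genes (3.6%) did, 1.48% of all genes as higher and 2.12% as lower. PNPT1 alone had an unadjusted p under 0.05, against 3392 of all tested genes (18.8%). With DESeq2's Wald test, 1 of the 8 was called (PNPT1, lower), where 7.54% of all genes were called, 3.28% as higher and 4.26% as lower. With the replicate number as a block in edgeR, 0 of the 8 were called, where 4.74% of all genes were called, 1.89% as higher and 2.85% as lower. The libraries of the groups did not overlap for 2 of the 8 genes, PNPT1 and DIS3L2, both lower after knockdown. Over all tested genes the groups did not overlap for 24.7%, split into 12.1% higher and 12.6% lower. The estimated log2 fold changes lay between -0.20 for PNPT1 and 0.16 for XRN1, with 5 above and 3 below 0. Their median was 0.02, beside 0.01 over all tested genes, and the median of their absolute values was 0.08, beside 0.16 over all tested genes. Each gene had between 836 and 6823 reads in every library, and the median standard error of their log2 fold changes was 0.0751, beside 0.131 over all tested genes. The lowest bound of the 8 intervals of 95% was -0.33 (PNPT1) and the highest was 0.45 (XRN1). No interval among the 8 reached -0.56, the upper bound of the interval of MTR4. As these are bulk libraries, a smaller share of cells with a transcript and less of it per cell cannot be told apart.

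**Figure D1:**
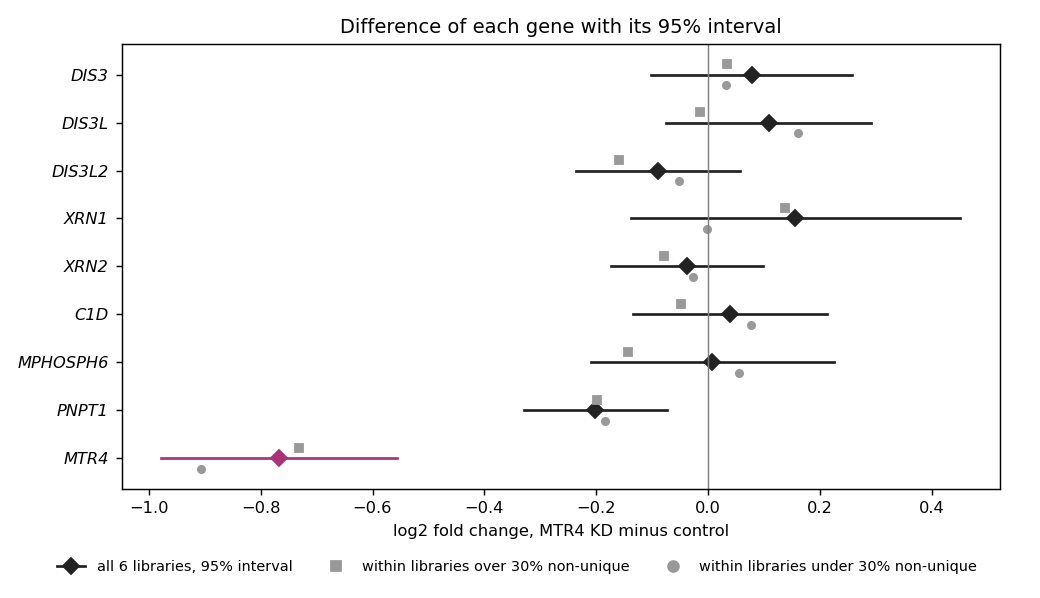
The x axis gives the log2 fold change, MTR4 KD minus control, of each gene on the y axis, with diamonds and lines for the estimate and 95% interval over all 6 libraries, and grey squares and circles for the difference within libraries over and under 30% non-unique alignments. The intervals of 7 of the 8 genes cross 0, that of PNPT1 runs from -0.33 to -0.07, and MTR4 lies apart at -0.77.

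PNPT1 (ENSG00000138035, chromosome 2, 55634061 to 55693844 on GRCh38) had the lowest fold change of the 8. It codes for a 3′ to 5′ exonuclease that also takes part in RNA import and degradation in mitochondria. Its level was 85.6, 83.7 and 86.1 CPM in the controls and 75.1, 72.2 and 74.7 CPM after knockdown. The highest of the values after knockdown lay below the lowest control value, as was the case for 2278 of the 18075 genes (12.6%). The mean was 85.1 ± 1.28 CPM in the controls and 74.0 ± 1.62 CPM after knockdown (SD, n = 3 per group). This gave a log2 fold change of -0.20 with a standard error of 0.0541, or -13% with an interval of -20.4% to -5.04%. The unadjusted p was 0.00690 and the adjusted p was 0.105 in edgeR's quasi-likelihood test, so the gene was not called.

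PNPT1 was called in some fits and not in others, at a like size of the difference. With the division by non-unique alignments as a covariate in edgeR, the log2 fold change was -0.19 (adjusted p = 0.00573), in a fit that called 3649 of the 18075 genes (20.2%), with 9.43% of all genes higher and 10.8% lower. PNPT1 was the 1 gene of the 8 called in that fit. With DESeq2's Wald test it was -0.20 (adjusted p = 0.0437). With the replicate number as a block in edgeR it was -0.20 and was not called (adjusted p = 0.107). Within the libraries over 30% non-unique alignments the log2 difference was -0.20, with MTR4 KD replicate 3 alone for its group. Within those under 30% it was -0.18, with control replicate 2 alone for its group. Leaving out single libraries moved the log2 fold change only between -0.21 and -0.18. Reads on the chromosome of mitochondria, the organelle in which the enzyme works, made up 3.04%, 3.99% and 3.15% of reads on genes in the controls and 3.68%, 3.73% and 5.80% after knockdown. The share was highest in MTR4 KD replicate 3, and the groups overlapped. The part of this share in the PNPT1 difference was not tested.

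**Figure D2:**
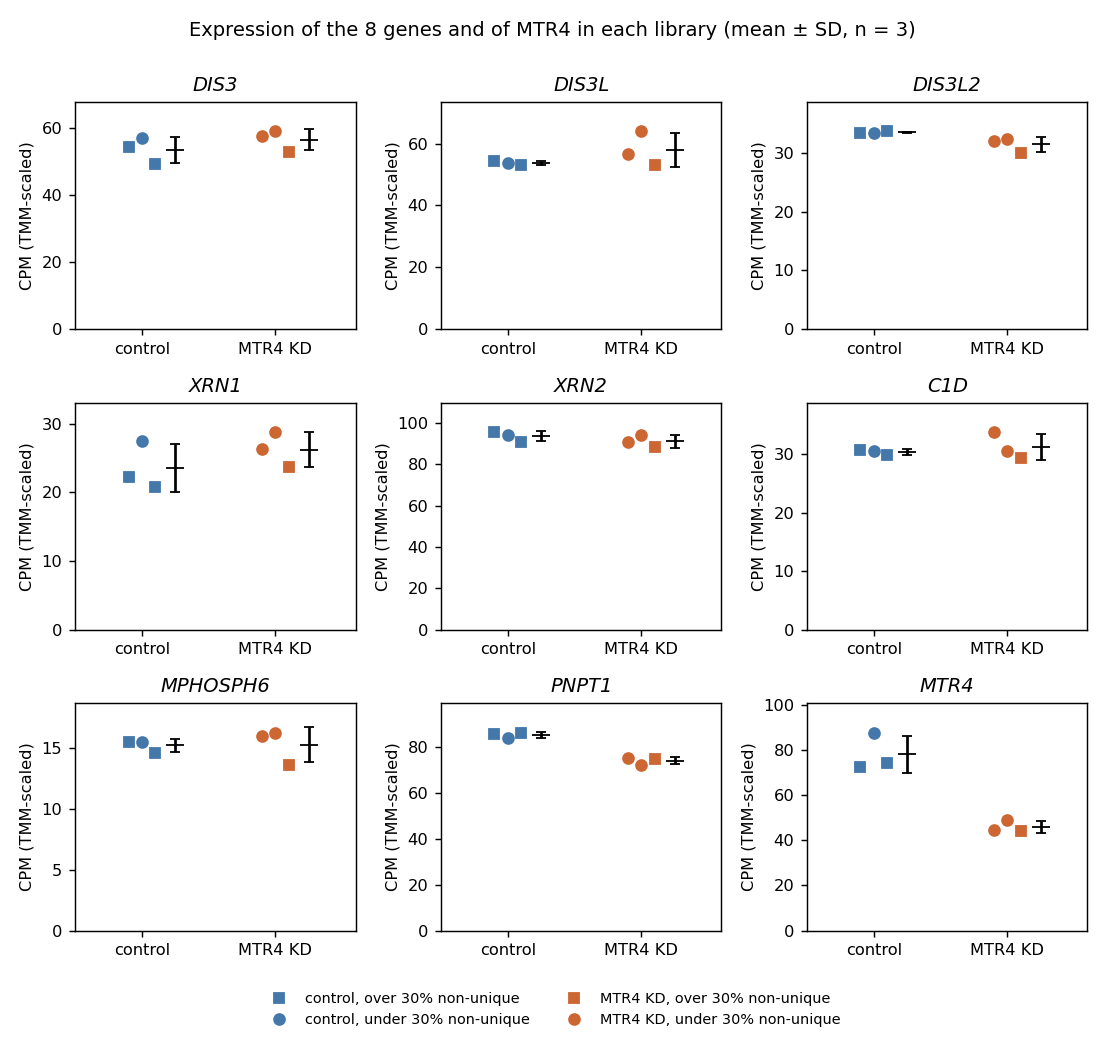
Each panel gives 1 gene, with its TMM-scaled CPM on the y axis from 0, a point for each library and the mean ± SD (n = 3) beside the points of each group, and with squares for libraries over and circles for libraries under 30% non-unique alignments. The groups are apart for PNPT1, DIS3L2 and MTR4, and in the XRN1 panel the circles are above the squares of the same group.

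The catalytic subunits of the exosome did not pass the test. DIS3 (ENSG00000083520, chromosome 13, 72752169 to 72781900) is the nuclear subunit, with both exonuclease and endonuclease activity. Its level was 54.3, 57.1 and 49.5 CPM in the controls and 57.7, 59.0 and 53.0 CPM after knockdown. The groups overlapped, with the lowest library of each group on the side over 30% non-unique alignments. MTR4 KD differed from control by 0.08 on the log2 scale (interval -0.10 to 0.26, adjusted p = 0.642 in edgeR's test), and it was 0.03 within either side of that division. With single libraries left out the DIS3 difference ran from 0.022 (without control replicate 3) to 0.13 (without control replicate 2).

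DIS3L (ENSG00000166938, chromosome 15, 66293309 to 66333898) is the cytoplasmic counterpart of DIS3. It was at 54.2, 53.8 and 53.0 CPM in the controls and at 56.5, 63.9 and 53.1 CPM after knockdown. The control libraries lay close together, and MTR4 KD replicate 2 stood above the other MTR4 KD libraries. The log2 fold change was 0.11 (interval -0.07 to 0.29, adjusted p = 0.516 in edgeR's test), and without MTR4 KD replicate 2 it was 0.03. Within the libraries over 30% non-unique alignments it was -0.014.

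DIS3L2 (ENSG00000144535, chromosome 2, 231961713 to 232344350) codes for the paralogue that degrades uridylated RNAs in the cytoplasm, among them precursors of let-7 microRNAs. Its level was 33.5, 33.5 and 33.7 CPM in the controls and 32.1, 32.5 and 30.1 CPM after knockdown. Each MTR4 KD library lay below each control library. The control spread, 0.127 CPM (SD, n = 3), was smaller than the 0.722 CPM that counting error alone gives for these read numbers, while the spread of the MTR4 KD libraries was 1.27 CPM. The log2 fold change was -0.09 (interval -0.24 to 0.06, adjusted p = 0.497 in edgeR's test), so the difference was not larger than the spread between libraries allowed for in the fit. It was -0.16 within the libraries over 30% non-unique alignments and -0.05 within those under 30%, and with single libraries left out it ran from -0.11 (without MTR4 KD replicate 2) to -0.057 (without MTR4 KD replicate 3).

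The nuclear cofactors stayed within their spread. C1D (ENSG00000197223, chromosome 2, 68041130 to 68063004), a partner of EXOSC10, had 30.8, 30.5 and 29.9 CPM in the controls and 33.8, 30.6 and 29.3 CPM after knockdown. The highest and the lowest value of all 6 libraries both belonged to the MTR4 KD group. Its log2 fold change was 0.04 (interval -0.13 to 0.21, adjusted p = 0.826 in edgeR's test), and without MTR4 KD replicate 1 it was -0.02. Of 5 annotated pseudogenes of C1D, 1 had more than 1 read in a library (C1DP1, 19 to 49 reads), and with their reads added the log2 difference of C1D was again 0.04.

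MPHOSPH6 (ENSG00000135698, chromosome 16, 82148162 to 82170224) codes for a small RNA-binding protein that helps to tether MTR4 to the exosome. It had 15.5, 15.5 and 14.6 CPM in the controls and 16.0, 16.3 and 13.6 CPM after knockdown. The values of the control libraries lay inside the range of the MTR4 KD libraries. Its log2 fold change was 0.01 (interval -0.21 to 0.22, adjusted p = 0.975 in edgeR's test). Its sign changed with the setting, to -0.04 with non-unique alignments as a covariate and to -0.002 without a filter on low counts. Within libraries over 30% non-unique alignments the log2 differences were -0.05 for C1D and -0.14 for MPHOSPH6, and within those under 30% they were 0.08 and 0.05.

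XRN2 (ENSG00000088930, chromosome 20, 21303331 to 21389825), the nuclear 5′ to 3′ exonuclease that helps to end transcription behind RNA polymerase II, was at 95.5, 94.2 and 90.9 CPM in the controls and at 90.8, 94.2 and 88.2 CPM after knockdown. The groups overlapped. Its log2 fold change was -0.04 (interval -0.17 to 0.10, adjusted p = 0.777 in edgeR's test), and it was -0.08 within libraries over and -0.03 within libraries under 30% non-unique alignments. With single libraries left out it ran from -0.064 (without MTR4 KD replicate 2) to -0.016 (without MTR4 KD replicate 3).

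XRN1 (ENSG00000114127, chromosome 3, 142306610 to 142448037) codes for the cytoplasmic enzyme that digests decapped mRNAs. Its level was 22.3, 27.5 and 20.8 CPM in the controls and 26.2, 28.7 and 23.7 CPM after knockdown. The library with the most XRN1 in the control group, replicate 2, was above 2 of the 3 MTR4 KD libraries. Libraries under 30% non-unique alignments had more XRN1 than those over 30%, by a log2 difference of 0.35 among the control and 0.21 among the MTR4 KD libraries. This was the widest such difference among the 8 genes within the control group, and 6 of the 8 were higher in the libraries under 30% in both groups. The log2 fold change was 0.16 (interval -0.14 to 0.45, adjusted p = 0.563 in edgeR's test) over all libraries, 0.07 with the division as a covariate (adjusted p = 0.534), 0.14 within the libraries over 30% and -0.003 within those under 30%. Without control replicate 2 it was 0.28 (adjusted p = 0.163), and without control replicate 3 it was 0.07.

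Levels of different genes were compared per kilobase of the canonical transcript in the control libraries. XRN2 was highest at 27.4 ± 0.701 CPM per kilobase (SD, n = 3), followed by PNPT1 at 18.7 ± 0.281 CPM per kilobase. DIS3L, MPHOSPH6 and C1D came next with mean levels of 14.2, 13.8 and 13.6 CPM per kilobase. The ranges of DIS3L and C1D over the control libraries did not overlap, whereas that of MPHOSPH6 (13.3 to 14.1 CPM per kilobase) overlapped both. DIS3L2 followed at 9.97 ± 0.0376, DIS3 at 5.07 ± 0.367 and XRN1 at 2.34 ± 0.350 CPM per kilobase (SD, n = 3). The order was the same for the first 3 genes and for XRN1 when lengths were taken over all annotated exons of a gene, but DIS3L2 then fell to 2.96 CPM per kilobase, below DIS3 at 4.95 CPM per kilobase, and C1D (8.53 CPM per kilobase) lay above MPHOSPH6 (6.96 CPM per kilobase). For DIS3L2 the lengths were 3366 bases in the canonical transcript and 11337 bases over all exons.

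Ratios of read counts within a library do not depend on how libraries are scaled. The count of DIS3L2 was 0.617, 0.586 and 0.682 times that of DIS3 in the controls and 0.556, 0.550 and 0.567 times after knockdown. The ratio was lower in all 3 libraries after knockdown than in any control, with a difference of -0.17 in the mean log2 ratio. The count of DIS3L2 was 0.618, 0.622 and 0.637 times that of DIS3L in the controls and 0.567, 0.508 and 0.567 times after knockdown, a difference of -0.19 on the log2 scale, again without overlap. An exact permutation test over 3 against 3 libraries cannot go below p = 0.1, and both ratios gave this smallest value (two-sided, adjusted over 5 ratios p = 0.25), so neither passed. The 2 ratios share DIS3L2 and are not independent of each other. The log2 difference of DIS3L2 to DIS3 was -0.19 within libraries over 30% non-unique alignments and -0.084 within those under 30%, and that of DIS3L2 to DIS3L was -0.15 and -0.21.

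The DIS3L to DIS3 ratio averaged 1.00 ± 0.0648 in the control and 1.02 ± 0.0547 after knockdown (SD, n = 3 per group, exact permutation p = 0.7). XRN1 had 0.252 ± 0.0351 times the reads of XRN2 in the control and 0.288 ± 0.0185 times after knockdown (SD, n = 3 per group, exact permutation p = 0.3), with a log2 difference of 0.21 within libraries over 30% non-unique alignments and of 0.02 within those under 30%. C1D had 2.00 ± 0.0393 times the reads of MPHOSPH6 in the control and 2.05 ± 0.143 times after knockdown (SD, n = 3 per group, exact permutation p = 0.7). These 3 ratios overlapped between the groups.

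**Figure D3:**
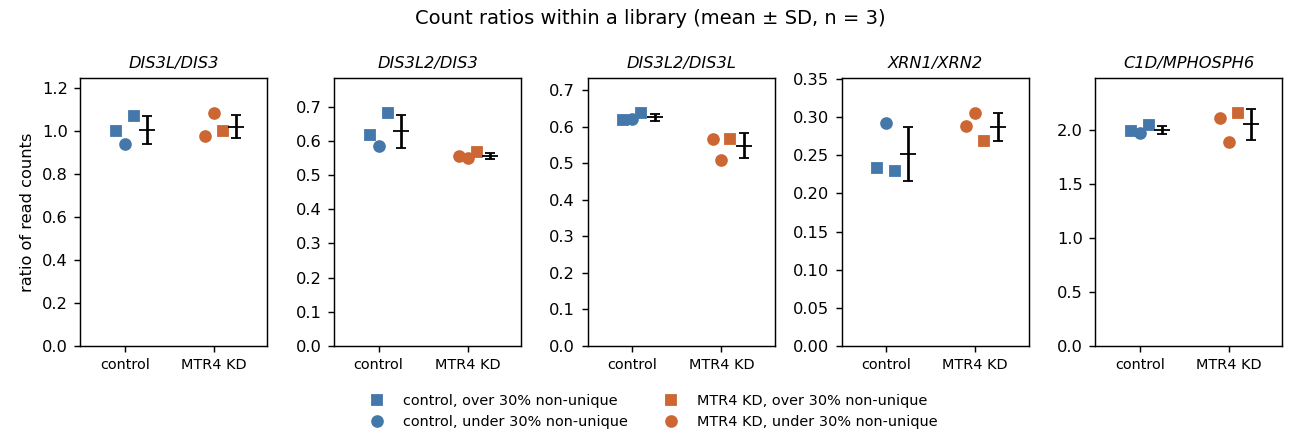
Each panel gives the ratio of the read counts of 2 genes in each library (y axis from 0), with points for libraries, squares and circles for libraries over and under 30% non-unique alignments, and the mean ± SD (n = 3) beside each group. The MTR4 KD points lie below the control points for DIS3L2 over DIS3 and DIS3L2 over DIS3L, and the points of the groups overlap in the other 3 panels.

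The surrounding RNA turnover machinery was described with 94 further genes in 9 lists, all matched and all tested. Of these, 0 were called higher and 1 was called lower in edgeR's test, beside 3.6% of all tested genes in either direction, and their median log2 fold change was 0.03, beside 0.01 over all genes. At an unadjusted p under 0.05 in edgeR's test, 5 of the 94 were higher and 5 lower, beside 18.8% of all tested genes in either direction. DESeq2 called 3 of the 94 (ISG20, ZCCHC8 and NUDT16), beside 7.54% of all tested genes. The gene called in edgeR was ISG20, an interferon-inducible 3′ to 5′ exonuclease that acts on single-stranded RNA. Its level was 34.8, 38.6 and 36.6 CPM in the controls and 25.2, 25.4 and 27.0 CPM after knockdown. The groups lay apart, with a log2 fold change of -0.51 and a standard error of 0.0701 (adjusted p = 0.0120 in edgeR's test). The adjusted p of ISG20 rose to 0.0636 without control replicate 3, to 0.0877 without MTR4 KD replicate 1 and to 0.0875 without MTR4 KD replicate 2, with log2 fold changes of -0.51, -0.49 and -0.49. The 15 other exonucleases to which it belongs had a median log2 fold change of -0.10.

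Among the 10 genes of the exosome ring and EXOSC10, 0 were called in either direction, 8 had a lower and 2 a higher mean in the MTR4 KD libraries, and the median log2 fold change was -0.11, with 1 of the 10 (EXOSC2, -0.16) at an unadjusted p under 0.05. EXOSC10, the nuclear nuclease that C1D binds, was at -0.09 on this scale (adjusted p = 0.561 in edgeR's test). The 9 genes of the MTR4 adaptor complexes had a median of 0.06 with 0 called, and their largest values were 0.37 for NRDE2, which binds and restrains MTR4, and 0.28 for ZCCHC8, the scaffold of the nuclear exosome targeting complex (adjusted p = 0.192 and 0.110 in edgeR's test). The 4 genes of the cytoplasmic Ski complex and its bridge to the exosome ranged from -0.12 to 0.10.

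None of the 17 genes of decapping and 5′ decay was called with condition as the only term. The highest log2 fold changes there were 0.40 for the helicase DDX6 and 0.37 for the decapping enzyme NUDT16 (adjusted p = 0.174 and 0.0702 in edgeR's test). Both were called higher with the replicate number as a block (adjusted p = 0.0363 and 0.0453 in edgeR's test) and without control replicate 2 (adjusted p = 0.0480 and 0.0221 in edgeR's test). None of 16 deadenylation genes, 4 partners of XRN2, 14 genes of mitochondrial RNA turnover and processing, and 5 genes of terminal uridylyltransferases and LIN28 was called either. Their median log2 fold changes were 0.03, 0.05, 0.05 and 0.03, and 1 of these genes (GRSF1) had an unadjusted p under 0.05. The widest estimate of the 94 genes was that of LIN28A, which codes for a protein that binds let-7 precursors and recruits uridylyltransferases, at a log2 fold change of -2.56 (adjusted p = 0.366 in edgeR's test). Its level was 0.0324, 4.20 and 0.249 CPM in the controls and 0.375, 0.240 and 0.147 CPM after knockdown. Control replicate 2 alone stood above 1 CPM, and control replicate 1 was below every library of the knockdown. With non-unique alignments as a covariate it was -2.90 and was called lower (adjusted p = 0.00620 in edgeR's test). With non-unique alignments as a covariate, 7 of the 94 genes were called higher and 9 lower (17.0%, beside 20.2% of all genes), among them DDX6, NUDT16, NRDE2 and ZCCHC8 as higher and EXOSC2, EXOSC8 and ISG20 as lower.

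For each of the 8 genes, the gene with the most similar profile was sought among 100 others, by the root mean square difference in log2 CPM over the 6 libraries after centring on the control mean. The closest was CNOT2, a scaffold subunit of the CCR4-NOT deadenylase, to C1D (0.0165). The others were SKIC3 for DIS3, REXO4 for DIS3L, ERI1 for DIS3L2, ISG20L2 for MPHOSPH6, DCP1A for XRN1, ELAC2 for XRN2 and GRSF1 for PNPT1, with differences of up to 0.0474. GRSF1, a protein of mitochondrial RNA granules, was at -0.15 on the log2 scale after knockdown (adjusted p = 0.227 in edgeR's test). With non-unique alignments as a covariate it was at -0.14 and was called (adjusted p = 0.0381 in edgeR's test). GRSF1 was picked by its profile over both groups, so a fall near that of PNPT1 follows from the choice. Of the 14 genes of mitochondrial RNA turnover and processing, 11 had a higher and 3 a lower mean after knockdown. All genes were measured in the same 6 libraries and share their differences in condition and non-unique alignments, so a small value describes these libraries only.

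The regions upstream of the 8 genes were compared by sequence, over the 250 bases before each annotated start in RefSeq (GRCh38), with 10 starts for the 8 genes. The observed to expected ratio of CG dinucleotides ran from 0.803 to 1.09 in these windows, with a median of 0.996, beside a median of 0.558 over 35116 windows of all genes. The motif GGGCGG, searched on both strands, occurred in 7 of the 10 windows (42.6% of all windows), CCAAT in 2 (32.0%), CACGTG in 2, both of XRN2 (6.35%), and TATAAA in 0 (10.7%). These are matches of letters and not sites. The 2 windows of XRN2 overlap, so CACGTG in both may be 1 match. The windows of all genes were not limited to genes expressed in these cells, as the 8 genes are. The windows of PNPT1 and XRN1 are shown because these genes had the lowest and the highest estimated fold change of the 8. Both lie on the minus strand and are written 5′ to 3′, ending at the base before the start, with matches to GGGCGG or CCAAT on either strand in capitals. PNPT1 is chr2:55693845-55694094 and XRN1 is chr3:142448038-142448287.
PNPT1: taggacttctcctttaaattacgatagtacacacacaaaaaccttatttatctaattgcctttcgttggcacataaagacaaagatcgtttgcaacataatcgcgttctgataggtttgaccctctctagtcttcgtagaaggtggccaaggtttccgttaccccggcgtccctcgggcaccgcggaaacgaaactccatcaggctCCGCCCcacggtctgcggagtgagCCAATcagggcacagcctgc
XRN1: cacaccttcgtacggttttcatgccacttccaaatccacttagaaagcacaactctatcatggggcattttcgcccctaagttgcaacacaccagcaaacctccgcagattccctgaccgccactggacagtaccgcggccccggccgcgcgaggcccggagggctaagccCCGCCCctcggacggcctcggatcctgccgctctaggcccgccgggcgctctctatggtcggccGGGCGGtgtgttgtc
In PNPT1, the match to CCAAT began 20 bases and the match to GGGCGG 44 bases before the start. XRN1 had matches to GGGCGG at 79 and 15 bases before it, and none to CCAAT.

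Other annotated genes overlap some of the 8. BORA lies on the opposite strand across 1180 exonic bases of DIS3 (10.9% of its exonic bases) and had 348 to 525 reads per library, with a log2 fold change of -0.21 (adjusted p = 0.332 in edgeR's test). Whether reads were counted by strand is not given in the sources used here. It is therefore not known whether reads from the shared bases were counted for DIS3, for BORA or for neither. The antisense transcript ENSG00000275457 shares 143 bases with XRN2 and had 30 to 64 reads per library. No other overlapping gene had more than 18 reads in a library, and the 4 annotated pseudogenes of PNPT1, DIS3L2 and MPHOSPH6 had at most 6.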

How the data were processed

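The deposited values are counts of reads for each Ensembl gene in each library, not normalized by the authors, with further rows for reads not assigned to a gene. The submitters' processing notes name HISAT2 2.1.0, HTSeq, DESeq2 and GRCh38. The strand setting and annotation release are not given in the sources used here. Entries not counted on a gene, 37.7% to 49.3% of all entries, were left out of library sizes and tests.

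Counts were analysed in R 4.3.3 with edgeR 4.0.16 (filterByExpr with its minimum count of 10, TMM, quasi-likelihood test, condition as the only term, Benjamini-Hochberg over 18075 genes, adjusted p of 0.05), which stands behind every adjusted p for which no other tool is named. limma 3.58.1 and DESeq2 1.42.0 served as alternatives, and Python 3.11.15 with scipy 1.17.1 for ratios (0.5 added to each count). Symbols, exon lengths and overlaps were taken from GENCODE gene models on GRCh37 coordinates (56959 of the 60675 genes matched), older symbols and positions from RefSeq on GRCh38.

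The 8 genes, the lists and the division at 30% non-unique alignments were chosen with earlier results of these data known. Named were the 8 genes, MTR4, overlapping genes and pseudogenes, the closest profiles, and turnover genes past the threshold. Turnover genes that did not pass in edgeR with condition only (EXOSC10, NRDE2, ZCCHC8, DDX6, NUDT16, EXOSC2, EXOSC8 and LIN28A) were named after their values were seen.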

Additional observations from a re-analysis of the deposited data

How the results depend on the processing

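With 3 libraries per group, the intervals given for the 8 genes show how large a difference these libraries leave possible. Of the 15 refits, those with RLE, upper-quartile or no scaling, other filters, limma-voom, the replicate block and each library left out called 0 of the 8 genes. DESeq2 called 1, as did the non-unique covariate, in both cases PNPT1. Over all genes these 2 settings called 1363 and 3649 genes against 650, and 16 turnover genes were called with the covariate and 3 with DESeq2, against 1. With each library left out in turn, between 136 and 810 genes were called over all genes, between 0 and 3 in the turnover lists and 0 among the 8. All genes called fell to 171 without control replicate 1, 181 without control replicate 3, 179 without MTR4 KD replicate 1 and 136 without MTR4 KD replicate 2, but were 810 without control replicate 2 and 647 without MTR4 KD replicate 3. In the turnover lists, 3 genes were called without control replicate 2, and 0 without control replicate 3, MTR4 KD replicate 1 or MTR4 KD replicate 2.

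The replicate numbers did not pair the libraries throughout. The correlation of same-numbered control and MTR4 KD libraries, as deviations from their group means across genes, was -0.22, 0.30 and 0.33 for numbers 1, 2 and 3. The replicate block called 857 of all genes, 3 turnover genes (ISG20, DDX6 and NUDT16) and 0 of the 8.

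The sign of 4 genes changed in some settings. Differences within a side rest on MTR4 KD replicate 3 alone (over 30%) or control replicate 2 alone (under 30%) for that group. DIS3L was -0.014 and C1D -0.049 within libraries over 30% non-unique alignments, and XRN1 was -0.0025 within those under 30%. With a library left out, C1D ran from -0.020 (without MTR4 KD replicate 1) to 0.083. MPHOSPH6 was -0.14 within libraries over 30%, -0.042 with the covariate and -0.0018 with no filter. With a library left out it ran from -0.039 to 0.084, negative without control replicate 3, MTR4 KD replicate 1 or MTR4 KD replicate 2. DIS3, DIS3L2, XRN2 and PNPT1 kept their sign in every setting. For ratios, the log2 difference of DIS3L to DIS3 was -0.047 within libraries over 30% and 0.13 within those under 30%, and -0.019 to 0.073 with a library left out, negative without control replicate 2 or MTR4 KD replicate 2. For DIS3L2 to DIS3 it was -0.084 within those under 30%, and for XRN1 to XRN2 0.025. With a library left out, C1D to MPHOSPH6 ran from -0.0030 (without MTR4 KD replicate 3) to 0.092, DIS3L2 to DIS3 from -0.22 to -0.11, DIS3L2 to DIS3L from -0.22 to -0.14 and XRN1 to XRN2 from 0.14 to 0.31. The cause of these changes was not tested.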

Other observations

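Reads assigned to no counted feature were taken as a share of these reads and reads on genes together. They made up 4.65%, 4.52% and 5.0% in the controls (replicates 1 to 3) and 4.75%, 4.70% and 4.89% after knockdown. The groups overlapped, with the highest and the lowest value both in the control group. Whether introns were counted as part of a gene is not given in the sources used here. The share may therefore hold intronic reads as well as reads outside genes.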
